A study of Arabidopsis thaliana with 8 samples.

Results

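The genes of the mitochondrial genome were followed across 8 oligonucleotide arrays of germinating Arabidopsis thaliana seedlings. They were taken as every probe set, a group of probes summarised to 1 value, that the platform annotation assigns to 1 gene alone, that gene lying on the mitochondrial chromosome. The rule gave 23 probe sets of 16 genes, out of 13072 probe sets with 1 gene and 22246 in the table. The gene table lists 32 mitochondrial protein symbols, so 16 of 32 were measured in this way. All 23 probe sets are described, and no filter on low values was applied.

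The study asked how mutations in a pair of related protein phosphatase genes of the PP2C class alter gene expression in seedlings exposed to abscisic acid (ABA), the hormone that holds back germination. Its 4 groups have 2 arrays each. Columbia wild type without ABA and Columbia wild type with 0.5 uM ABA are the controls, and the mutants ahg1-1 and ahg3-1, both hypersensitive to ABA, were each grown with 0.5 uM ABA and have no untreated group. All groups had 4 days of cold at 4 °C and were collected after 2 days of germination at 23 °C on medium with sucrose, and total RNA of the seedlings was used. The mutated genes, AHG1 and AHG3, have no probe set named here, and no check of the mutant labels by their own transcripts was made.

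The plant mitochondrial genome encodes only a small part of the proteins of the organelle. Most of its protein genes specify core subunits of the respiratory chain and the ATP synthase, ribosomal proteins, and the factors that attach heme to c-type cytochromes, while the nuclear genome supplies all other subunits. Its transcripts are matured by splicing of introns and by editing of C to U, and several, among them nad1, nad2 and nad5 in Arabidopsis, are joined in trans from separately transcribed pieces. Poly(A) tails on plant mitochondrial RNAs mostly mark them for decay, and the labels do not state which primer began cDNA synthesis, so the fraction of each transcript that was copied is unknown. Germinating seeds rebuild working mitochondria from simple precursors, which makes these genes of interest at this stage.

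By role, the probe sets fall into 15 for 8 subunits of complex I, the NADH dehydrogenase at the entry of the respiratory chain (nad1, nad2, nad4, nad4L, nad5, nad6, nad7 and nad9), 2 for cytochrome c oxidase (cox1 and cox2) and 4 for cytochrome c maturation (ccb203, ccb206, ccb382 and ccb452). The remaining 2 are matR, a maturase that acts in intron splicing, and orfX, a membrane protein related to the TatC translocase. The gene table gives the ccb genes and orfX under newer symbols: ccb206 is ccmB, ccb203 is ccmFN2, ccb382 is ccmFN1, ccb452 is ccmFC and orfX is mttB. nad1 has 7 probe sets and nad5 has 2. Those assigned to the same gene are not independent, although they may detect different parts of it. The probe sets of matR, orfX, ccb452 and nad6 and 1 of nad5 carry the array maker's suffix for probes shared by several transcripts.

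Another 12 probe sets are annotated to a mitochondrial gene together with a further gene and were left out by the rule. In 11 of them the further gene lies on chromosome 2, where the Arabidopsis nuclear genome carries a large copy of mitochondrial DNA. They include the probe sets of cob, cox3, atp1, atp9, rps4, rps7, rps12, rpl2 and rpl5, so complexes III and V and the ribosome are not represented by any of the 23. The 23 could also detect transcripts of nuclear copies that the annotation does not name, and their part in the values was not tested.

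Deposited values are log2 expression, so a difference of 1 is a doubling, and array medians lay between 5.91 and 5.97. On each array 13 to 18 of the 23 probe sets were below the array median. Levels of different probe sets are not on a common scale, and each probe set is compared only with itself. Arrays also differed by the replicate number in their titles, 1 or 2, and differences within each number are given where they matter. Markers of seedling and seed tissue differed between the groups with and without ABA: 3 of 4 listed photosynthesis genes were measured and ran between 10.97 and 11.92 without ABA, against 5.84 to 10.21 in wild type with ABA, 4.86 to 9.21 in ahg1-1 and 5.25 to 9.82 in ahg3-1. The 4 measured of 5 seed reserve genes ran between 4.14 and 6.77 without ABA and between 9.32 and 12.89 in the 3 groups with it. Wild type with and without ABA was thus collected at the same time with unlike levels of these markers, and the stage of germination and ABA itself cannot be told apart in that comparison. Against wild type with ABA, the photosynthesis markers had median differences of -1.65 in ahg1-1 and -1.14 in ahg3-1. The seed reserve markers had medians of 0.89 and 0.73. All of these went the same way within both replicate numbers. Stage and mutation therefore cannot be told apart in the mutant comparisons. In seedling RNA, fewer mitochondria or fewer cells and less RNA per cell cannot be told apart either.

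**Figure D1:**
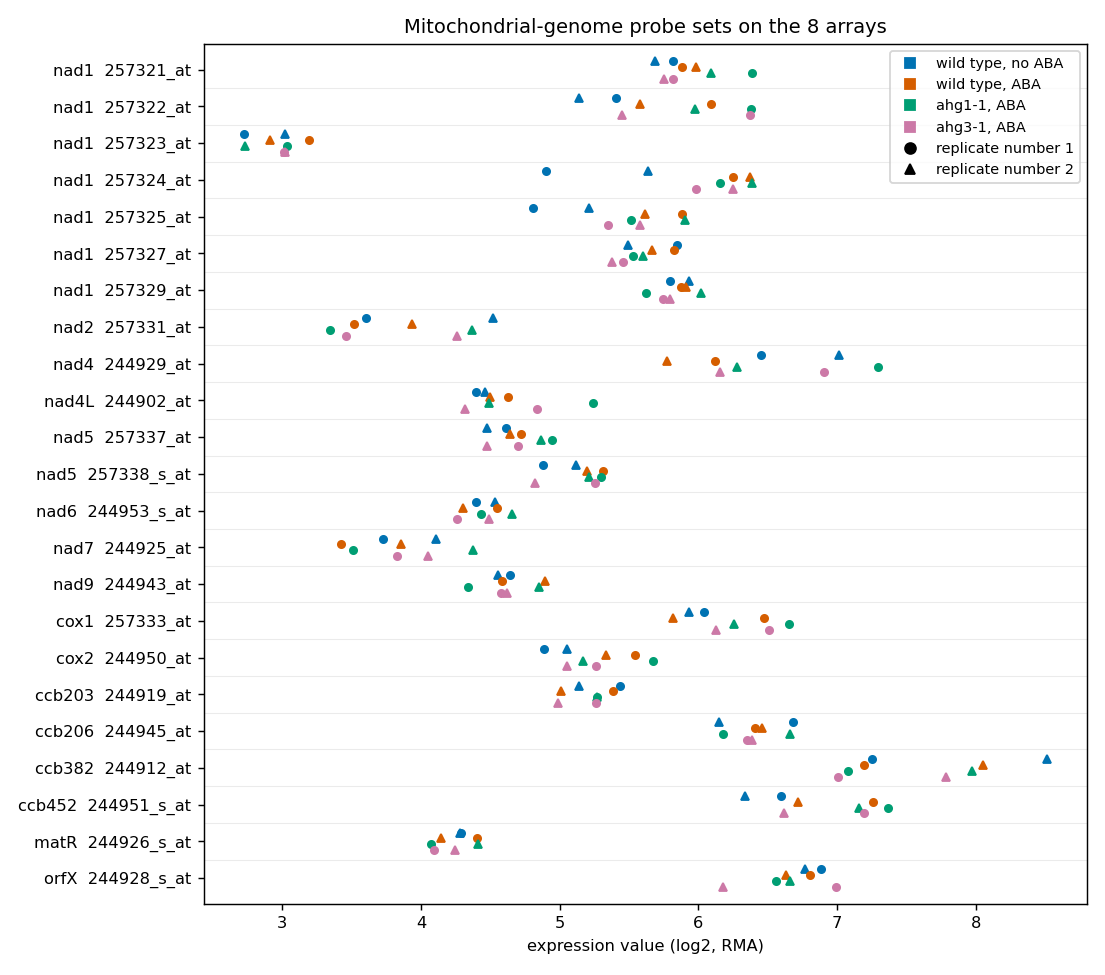
Log2 expression value (RMA) of each of the 23 mitochondrial-genome probe sets on the 8 arrays, coloured by group, with circles for replicate number 1 and triangles for number 2. In nad1 257322_at, 257324_at and 257325_at and in ccb452, both untreated arrays lie below all 6 others.

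ABA was compared with no ABA in wild type first. Differences of the mitochondrial probe sets were small: the median log2 difference over the 23 probe sets was 0.13 with ABA, against 0.05 over all probe sets, with 15 values above 0 and 8 below. The extremes were 1.04 for nad1 257324_at and -0.79 for nad4. No probe set passed limma at an adjusted p below 0.05, against 1.37% of all probe sets. An unadjusted p below that value was found for 2 of the 23, against 12.8% of all probe sets. With the replicate number as a block in the fit, 1 probe set passed, nad1 257324_at, against 12.6% of all probe sets. With the block 5 of the 23 had an unadjusted p below 0.05, against 26.6% of all probe sets.

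Groups did not overlap in 10 probe sets, 9 of them higher with ABA and 1 lower. Over all probe sets 18.4% were higher without overlap and 14.3% lower. In total 43.5% of the 23 separated, against 32.7% of all probe sets, and 4 of the 9 are probe sets of nad1. These were nad1 257321_at, 257322_at, 257324_at and 257325_at, nad4L, both probe sets of nad5, cox2 and ccb452; the lower probe set was nad4.

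nad1 encodes a membrane subunit of complex I next to the site where ubiquinone is bound, and its 7 probe sets gave different pictures. For 257324_at, the untreated wild-type arrays read 4.90 and 5.64 and the ABA arrays 6.25 and 6.37, while ahg1-1 read 6.16 and 6.39 and ahg3-1 read 5.99 and 6.25. Both untreated arrays were below all 6 arrays with ABA. The means were 5.27 ± 0.52 and 6.31 ± 0.08 (SD, n = 2), a log2 difference of 1.04 ± 0.28 (SE) or 2.06-fold (limma, adjusted p = 0.166). With the replicate number as a block the SE was 0.19 and the adjusted p 0.0127, so this probe set rose under that fit. That fit takes the gap between numbers to be the same in every group. For this probe set the gap was 0.74 without ABA and 0.12 to 0.26 in the groups with it. Within number 1 the difference was 1.35 and within number 2 it was 0.73. Without the first untreated array it was 0.67.

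A second nad1 probe set, 257325_at, had the same layout. It read 4.81 and 5.21 without ABA, 5.88 and 5.61 in wild type with ABA, 5.51 and 5.90 in ahg1-1, and 5.35 and 5.58 in ahg3-1. Its difference with ABA in wild type was 0.74 ± 0.25 (limma, adjusted p = 0.260, and 0.0525 with the block). Probe set 257322_at read 5.40 and 5.14 without ABA and 6.09 and 5.58 with it, a difference of 0.56 ± 0.36 with an adjusted p of 0.683, or 0.102 with the block. Here the groups were apart by less than the number 1 and 2 arrays of ahg3-1, which read 6.37 and 5.45.

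The other 4 nad1 probe sets differed by 0.18 (257321_at), 0.18 (257323_at), 0.07 (257327_at) and 0.03 (257329_at), each with a limma SE between 0.19 and 0.22. Across the 7 the differences thus spanned 1.01 log2 units for what the annotation calls 1 gene, with all 7 above 0. Probe set 257323_at read 2.72 and 3.02 without ABA, 3.19 and 2.91 in wild type with ABA, 3.03 and 2.73 in ahg1-1, and 3.01 and 3.02 in ahg3-1. It lay below the 5th percentile of its array on all 8 arrays, and it was the only member that low. The annotation used here does not say which exon or piece of nad1 each probe set detects. A further pair of probe sets named nad1 together with a chromosome 2 gene, left out by the rule, differed by 0.15 and -0.13.

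**Figure D2:**
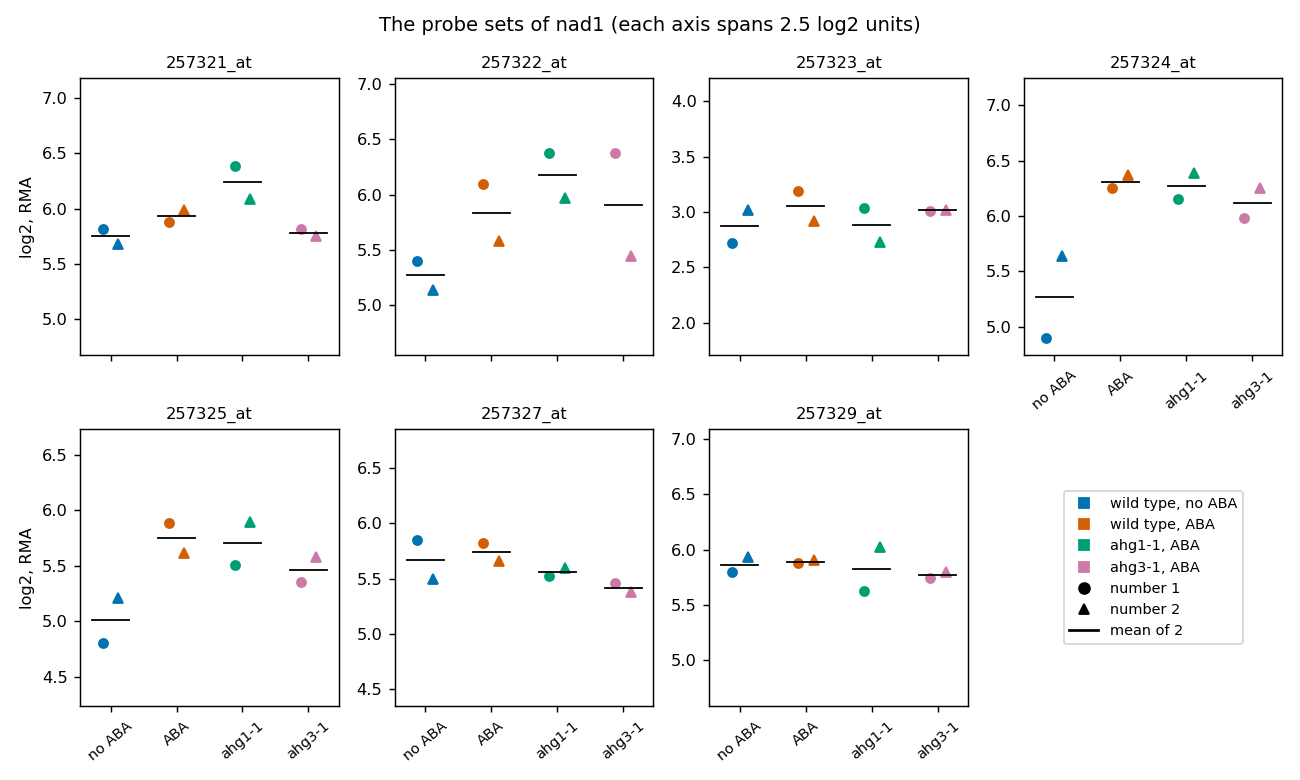
Log2 expression value of the 7 nad1 probe sets in the 4 groups, with circles for replicate number 1, triangles for number 2 and a line at the mean of the 2 arrays. Each vertical axis spans the same number of log2 units, and in 257322_at, 257324_at and 257325_at both untreated arrays lie below all 6 others.

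Among the other membrane subunits of complex I, nad4 had the lowest difference of all members. It encodes a proton-pumping subunit and read 6.45 and 7.01 without ABA, 6.12 and 5.77 in wild type with ABA, 7.29 and 6.28 in ahg1-1, and 6.90 and 6.15 in ahg3-1. Wild type with ABA was therefore below all the other groups, by 0.79 ± 0.42 against the untreated arrays (limma, adjusted p = 0.571, and 0.190 with the block). Within number 1 the difference was -0.34 and within number 2 it was -1.24. nad4L, a small membrane subunit, read 4.40 and 4.46 without ABA and 4.63 and 4.50 with it, a difference of 0.13 ± 0.30.

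nad2, another proton-pumping subunit, read 3.60 and 4.52 without ABA and 3.52 and 3.94 in wild type with it, while ahg1-1 read 3.34 and 4.37 and ahg3-1 read 3.46 and 4.26. The wild-type difference of -0.34 ± 0.48 was smaller than the gap between the untreated arrays. nad5, the pumping subunit at the far end of the membrane arm, differed by 0.14 ± 0.18 in 257337_at and by 0.26 ± 0.22 in 257338_s_at, and nad6 differed by -0.04 ± 0.21. In the matrix arm, nad7 read 3.73 and 4.11 without ABA and 3.42 and 3.86 in wild type with it, with 3.51 and 4.38 in ahg1-1 and 3.83 and 4.05 in ahg3-1. The nad7 difference in wild type was -0.28 ± 0.34 and the groups overlapped. nad9 differed by 0.14 ± 0.24. None of these passed limma with or without the block.

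cox2 carries the copper centre of cytochrome c oxidase that accepts electrons from cytochrome c. It read 4.89 and 5.05 without ABA and 5.54 and 5.34 in wild type with ABA, with no overlap. In ahg1-1 it read 5.67 and 5.17 and in ahg3-1 5.26 and 5.05, so the ahg3-1 arrays reached down to the untreated level. The wild-type difference was 0.47 ± 0.24 (limma, adjusted p = 0.528, and 0.157 with the block). cox1, the catalytic subunit with the oxygen-binding site, read 6.04 and 5.93 without ABA and 6.47 and 5.82 with it, and the ABA arrays enclosed the untreated ones.

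The cytochrome c maturation genes had differences of both signs with ABA. ccb452, which encodes 1 part of the heme lyase that is split in Arabidopsis, read 6.60 and 6.33 without ABA and 7.26 and 6.72 in wild type with it, while ahg1-1 read 7.37 and 7.16 and ahg3-1 read 7.19 and 6.62. Its difference in wild type was 0.52 ± 0.29 (limma, adjusted p = 0.588, and 0.0820 with the block). ccb382 and ccb203, the other parts of the same lyase, differed by -0.26 ± 0.56 and -0.09 ± 0.23. ccb206, a membrane subunit of the transporter that feeds this pathway, differed by 0.02 ± 0.26.

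Differences for matR and orfX were -0.01 ± 0.21 and -0.11 ± 0.29. orfX read 6.89 and 6.77 without ABA, 6.80 and 6.63 in wild type with ABA and 6.56 and 6.66 in ahg1-1, and its widest gap was in ahg3-1, at 6.99 and 6.17. matR read 4.29 and 4.28 without ABA, 4.40 and 4.14 in wild type with ABA, 4.07 and 4.41 in ahg1-1, and 4.09 and 4.25 in ahg3-1, and the wild-type ABA arrays enclosed the untreated ones. In the gene table orfX (as mttB) is the neighbour of nad4, and matR, nad5 and nad7 follow each other; these neighbours had differences of -0.11 and -0.79, and of -0.01, 0.14 to 0.26, and -0.28.

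**Figure D3:**
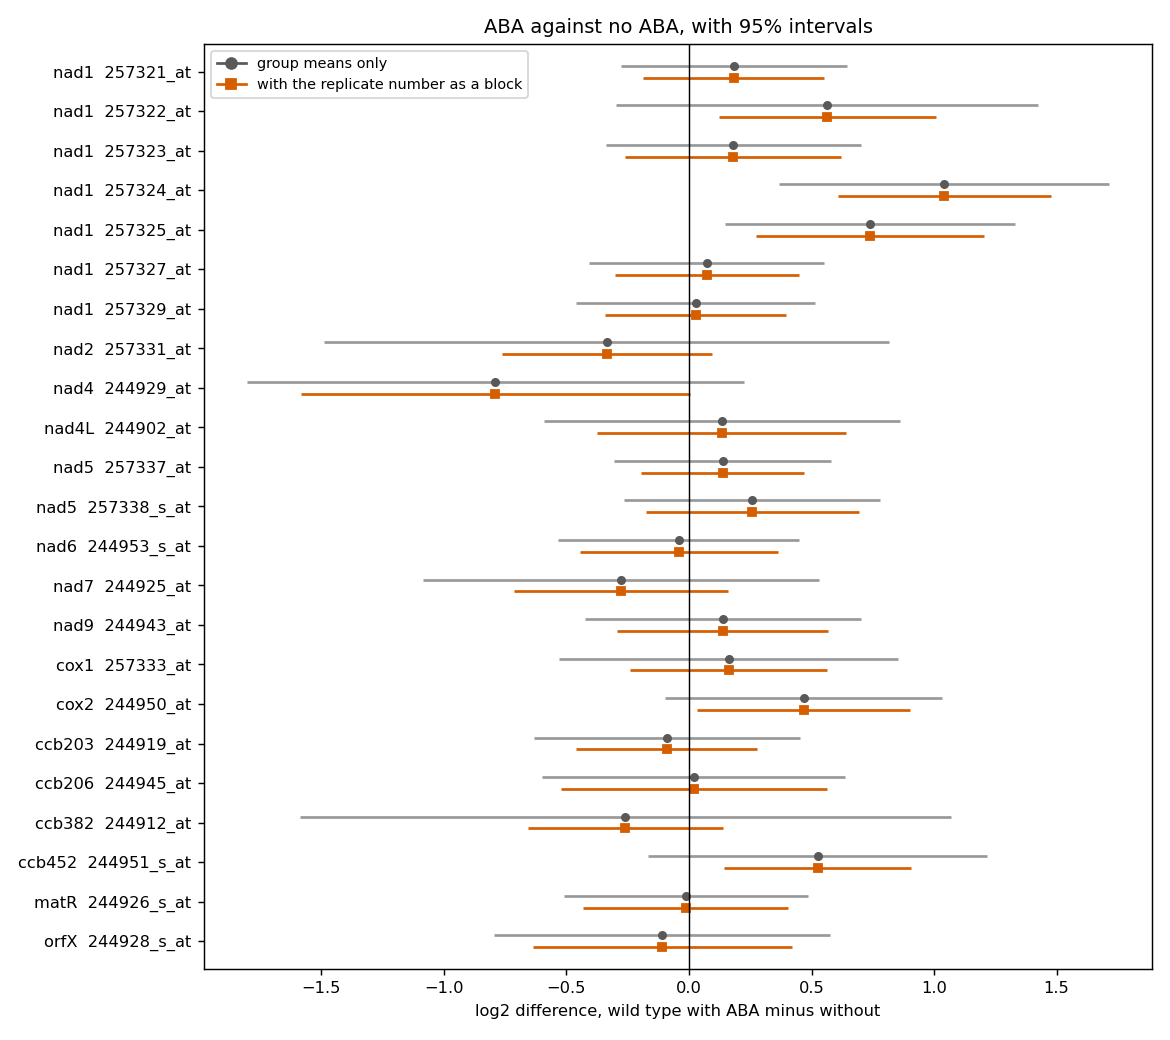
Log2 difference between wild type with and without ABA for each of the 23 probe sets, with 95% intervals from limma fitted on group means only (grey circles) and with the replicate number as a block (orange squares). The point values are the same in both fits, the intervals are mostly narrower with the block, and nad1 257324_at lies farthest right and nad4 farthest left.

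The half-width of the 95% interval of a difference had a median of 0.59 log2 units over the 23 probe sets, or 0.43 with the block. In the ABA comparison the interval stayed within -1 and 1 for 14 probe sets, and for 19 with the block. For the rest, a difference beyond a doubling or a halving lay within the interval.

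The mitochondrial set was next placed beside other gene groups in the same ABA comparison, as a description without a test between groups. Nuclear genes listed for the respiratory complexes, cytochrome c and the ATP synthase had 21 of 41 loci measured, in 22 probe sets. Their median difference was 0.36, with 20 above 0 and 2 below. Of the 22, 0 passed limma, against 1.37% of all probe sets, and 5 had an unadjusted p below 0.05, against 12.8%. With the block 3 passed as higher, against 6.1% of all probe sets. Groups did not overlap in 10 of the 22, all higher with ABA, against 18.4% of all probe sets. FRO1, a subunit of complex I, differed by 0.34 ± 0.26 and MPPBETA of complex III by 0.54 ± 0.20. The cytochrome c genes CYTC-2 and CYTC-1 differed by 0.53 ± 0.30 and 0.09 ± 0.20. SDH2-1 of complex II, which has 2 probe sets, differed by -0.41 ± 0.30 and 0.00 ± 0.25. None of these named genes passed with the block, and the probe sets that did belong to loci without a symbol in the gene table. Complex II has no mitochondrially encoded subunit among those measured, and its 5 nuclear probe sets had a median of 0.00, with values from -0.41 to 0.34. That median is the second SDH2-1 probe set, which had a mean of 3.67 in both groups. The 5th percentiles of the arrays were 3.15 to 3.35, so this reading was near the low end.

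Nuclear genes for organelle RNA synthesis and processing, with RNA polymerase and splicing genes among them, had 6 of 12 loci measured, with a median of 0.33. Of these, 0 passed limma, against 1.37% of all probe sets, and 1 had an unadjusted p below 0.05, against 12.8%. With the block 0 passed, against 12.6%. With 6 probe sets such counts are too small to compare with these shares. Differences ran from -0.11 to 0.53, with 5 above 0 and 1 below. The 1 below was OTP43, which in Arabidopsis is needed for splicing of a nad1 intron, at -0.11 ± 0.21. The lists of alternative oxidases and of mitochondrial carriers and import had 0 measured of 5 and 0 of 10 loci.

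Plastid-genome genes, the other organelle genome of these cells, gave unlike values. Their 69 probe sets had a median of -0.99, with 67 below 0 and 28 lower with no overlap, against 14.3% of all probe sets. None passed limma, at a lowest adjusted p of 0.0501, against 1.37% of all probe sets. An unadjusted p below 0.05 was found for 15, against 12.8% of all probe sets. With the block 36 fell, against 6.48% of all probe sets. The mitochondrial values ran from -0.79 to 1.04 and the plastid values from -2.12 to 0.06. The 12 probe sets left out for a second gene had a median of 0.00. None passed limma without or with the block, against 1.37% and 12.6% of all probe sets. In those fits 0 had an unadjusted p below 0.05, against 12.8% and 26.6%. Over all probe sets the 5th and 95th percentiles of the difference were -1.04 and 0.77.

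**Figure D4:**
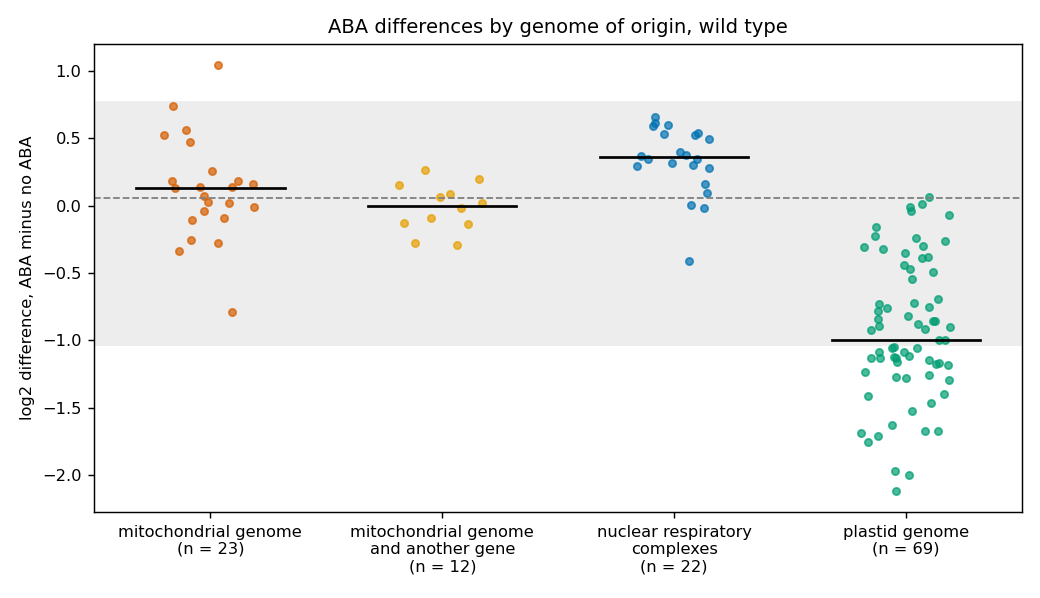
Log2 difference between wild type with and without ABA for mitochondrial-genome probe sets, those left out because they are annotated to a mitochondrial and a further gene, nuclear respiratory complex genes and plastid-genome genes. Each point is a probe set, black lines are medians (0.13, 0.00, 0.36 and -0.99), the dashed line is the median over all probe sets and the grey band runs from their 5th to their 95th percentile.

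ahg1-1 was then compared with wild type, both on ABA. The median difference over the 23 mitochondrial probe sets was -0.0017, with 11 above 0 and 12 below, against 0.01 over all probe sets. None passed limma, with or without the block; 0 had an unadjusted p below 0.05 without it and 1, nad4, with it. Over all probe sets 0% passed limma, where 326 (1.47%) had an unadjusted p below 0.05, and 0.0135% passed with the block, where 8.62% had an unadjusted p below 0.05.

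Arrays of the 2 groups did not overlap for 3 probe sets that were higher in ahg1-1 and 1 that was lower, against 11% and 8.66% of all probe sets. Higher were nad4, by 0.84 ± 0.42 with 1.17 within number 1 and 0.51 within number 2 (limma, adjusted p with the block 0.559), nad1 257321_at, by 0.31 ± 0.19, and nad5 257337_at, by 0.22 ± 0.18. nad1 257321_at read 5.88 and 5.98 in wild type and 6.39 and 6.09 in ahg1-1. nad5 257337_at read 4.72 and 4.64 in wild type and 4.94 and 4.86 in ahg1-1, which were the highest of its 8 values. Lower was nad1 257327_at, by 0.18 ± 0.20. The interval of the difference stayed within -1 and 1 for 16 of the 23, and for 22 with the block.

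ahg3-1 was compared with the same wild-type arrays, so an array of wild type that stands high or low enters both mutant comparisons. The median difference was -0.10, with 6 values above 0 and 17 below, against 0.00 over all probe sets; 13 of the 23 were lower in ahg3-1 within both replicate numbers, as were 29% of all probe sets. None passed limma, and 0 had an unadjusted p below 0.05 with or without the block. Over all probe sets 0% passed limma, where 18 (0.0809%) had an unadjusted p below 0.05, and 0% passed with the block, where 4.41% had an unadjusted p below 0.05.

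Groups did not overlap for 1 probe set higher in ahg3-1 and 7 lower, against 7.39% and 8.21% of all probe sets. nad4 was the higher, by 0.59 ± 0.42. Of the 7 lower ones, 5 were probe sets of nad1 (257321_at, 257324_at, 257325_at, 257327_at and 257329_at), with differences between -0.12 and -0.32, and cox2 differed by -0.29 ± 0.24 and ccb206 by -0.07 ± 0.26. nad1 257327_at read 5.82 and 5.66 in wild type and 5.46 and 5.38 in ahg3-1, a difference of -0.32 ± 0.20 (limma, adjusted p with the block 0.878). Each of these values is under 2 of its standard errors. The interval of the difference stayed within -1 and 1 for 19 of the 23, and for 22 with the block.

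The mutants were also set against each other, on the arrays already used above. The median difference, ahg1-1 minus ahg3-1, was 0.14, with 20 of the 23 probe sets above 0, against 0.01 over all probe sets. Within both replicate numbers 15 were higher in ahg1-1 and 0 lower, against 29.8% and 24.3% of all probe sets. Of the 15, 5 are probe sets of nad1, and both probe sets of nad5 are among them, so they are not 15 separate genes. None passed limma, with or without the block; 0 had an unadjusted p below 0.05 without it and 1, nad1 257321_at, with it. Over all probe sets 0% passed limma, where 92 (0.414%) had an unadjusted p below 0.05, and 0.0045% passed with the block, where 2.61% had an unadjusted p below 0.05.

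Here 4 probe sets were higher in ahg1-1 without overlap and 0 lower, against 11.3% and 7.17% of all probe sets. nad1 257321_at read 6.39 and 6.09 in ahg1-1 and 5.81 and 5.75 in ahg3-1, a difference of 0.46 ± 0.19 with an adjusted p with the block of 1.00. nad5 257337_at was higher by 0.32 ± 0.18, nad1 257327_at by 0.14 ± 0.20 and ccb203 by 0.14 ± 0.23. The interval stayed within -1 and 1 for 17 of the 23, and for 22 with the block.

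For ccb382 and nad2 the gap between replicate numbers in each group was wider than that between any groups' means. ccb382 read 7.25 and 8.52 without ABA, 7.20 and 8.05 in wild type with ABA, 7.08 and 7.97 in ahg1-1 and 7.00 and 7.78 in ahg3-1. Number 2 was higher in all 4 groups, by 0.78 to 1.27 log2 units, and all 4 arrays of number 2 lay above all 4 of number 1. nad2 and nad7 had the same layout, with number 2 higher by 0.42 to 1.03 in nad2 and by 0.22 to 0.87 in nad7. nad1 257324_at and 257329_at were higher in number 2 in all 4 groups as well, for 5 probe sets in all.

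In the opposite direction, nad1 257322_at, nad5 257337_at, cox1 and ccb452 were lower in number 2 in all 4 groups. For ccb452 the gap was 0.21 to 0.58 and for nad1 257322_at it was 0.26 to 0.93. The other 14 went both ways. Between groups, the differences of number 2 from number 1 had a correlation across the 23 probe sets of 0.35 to 0.79 over 6 pairs of groups, and of 0.50 to 0.84 across the whole table. Points of these correlations come from the same 2 arrays in each group, so they describe the arrays. The labels do not say what the number stands for. The root hair markers EXPA7 and EXPA18 read 5.95 to 8.56 on the number 1 arrays with ABA and 5.14 to 5.82 on those of number 2. Without ABA the numbers were close, with EXPA7 at 7.73 and 7.87 and EXPA18 at 7.55 and 7.45 on numbers 1 and 2. The part of these markers in the gaps was not tested.

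Median differences between number 2 and number 1 over the 23 probe sets were small and of either sign, from -0.16 in wild type with ABA to 0.07 in ahg1-1. The median size of the gap, regardless of sign, was between 0.23 and 0.39 in the 4 groups, which is larger than the median size of 0.18 of the ABA difference, although a gap is between single arrays and a difference between means of 2.

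**Figure D5:**
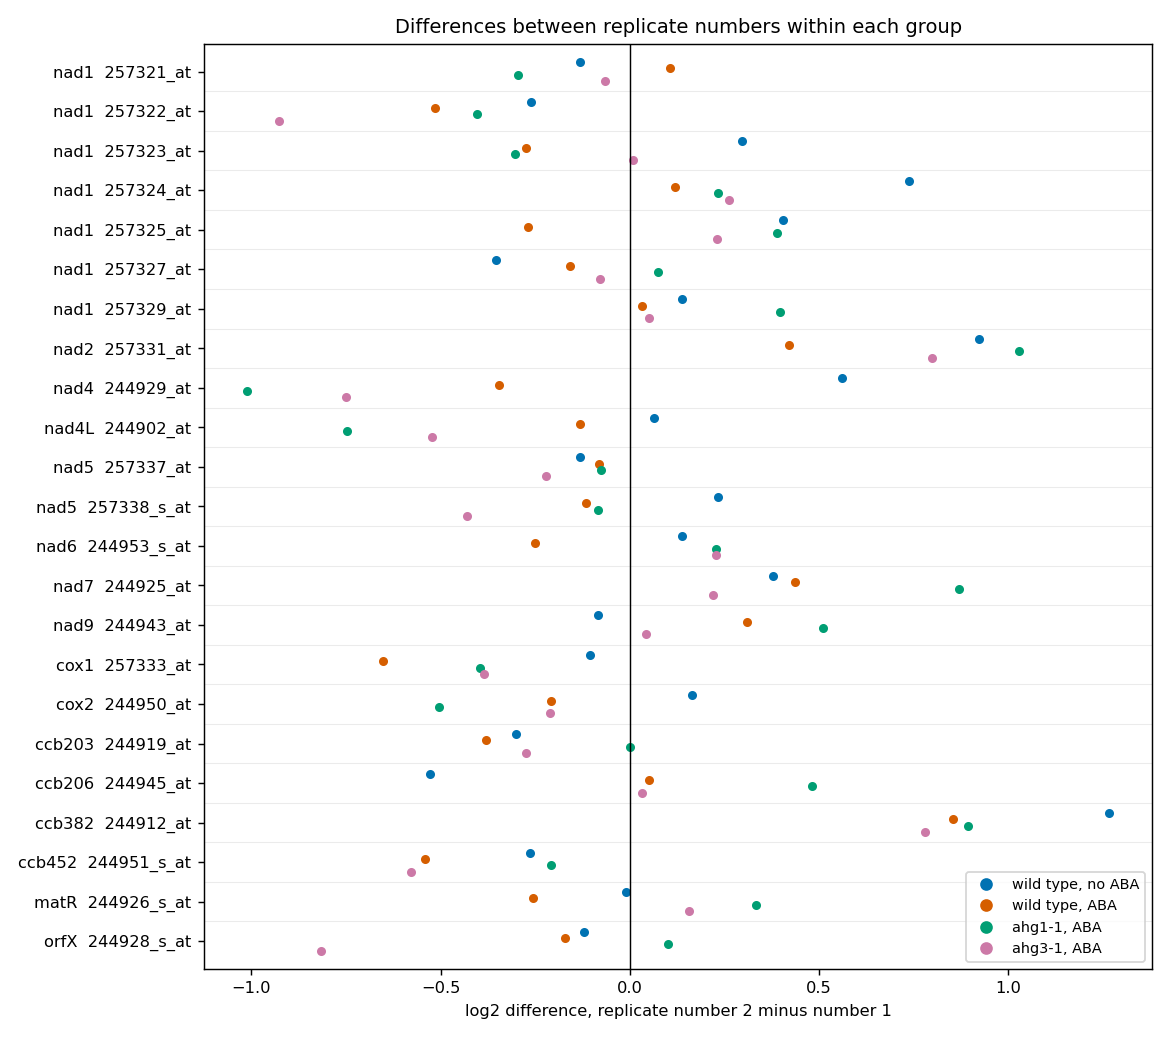
Log2 difference between the array of replicate number 2 and that of number 1 within each group, for the 23 probe sets and coloured by group. Points of ccb382, nad2 and nad7 lie right of 0 in all 4 groups, and those of nad1 257322_at, cox1 and ccb452 lie left of it.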

How the data were processed

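Total RNA was labelled and hybridised to 1-colour arrays. The deposited values are log2 expression per probe set, made by the authors with RMA, per the submitters' processing notes; the version is not given in the sources used here. RMA quantile-normalizes the arrays, so a shift shared by most transcripts would not be seen. The table held 22246 probe sets and no pair of identical arrays. Groups and replicate numbers came from the titles; the free-text descriptions repeat the untreated wild-type wording for all 8 samples and were not used. The labels name no separate cultures, so p-values measure only the spread between arrays, possibly technical, and precision is limited by 2 arrays per group.

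Group means over all 8 arrays were fitted with limma 3.58.1 in R 4.3.3 (4 residual degrees of freedom), with two-sided p-values, Benjamini-Hochberg adjustment over all probe sets and calls at an adjusted p below 0.05. It was tested on simulated data. Deviations of same-numbered arrays from their group means correlated with r of 0.50 to 0.84 in the 6 pairs of groups. The numbers were therefore taken to pair the arrays. Pairs with the untreated group had r of 0.50 to 0.66, and pairs among the groups with ABA 0.81 to 0.84. The pairing thus has less support in the ABA comparison than in the mutant comparisons. The fit with the number as a block (3 residual degrees of freedom) is given where it changes a call. Other alternatives were each array left out, only the arrays compared, dim probe sets left out, cyclic loess, median centring, trended robust variance, and subsets of the members.

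Probe sets with 1 gene numbered 13072, with several 503 and unnamed here 8671. The annotation's identifiers for mitochondrial genes were not in the TAIR10.1 gene table; 18 members matched by symbol and 5 by synonym, case included. Gene lists were assigned by locus from general knowledge. Members and lists were chosen with earlier results of these data known. By rule, values on every array are given for the 3 members with the highest and 3 with the lowest mean, those called, and the lowest p per role; nuclear list members were named only where the gene table pairs a symbol with the locus. The array values of nad4, nad4L, cox1, matR, 257337_at of nad5 and the further nad1 probe sets were added after values were seen, as were the list genes named beside them.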

Additional observations from a re-analysis of the deposited data

How the results depend on the processing

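Limits: 2 arrays a group, no detection calls, shared probes in 5 members, and half-widths of intervals that often exceed the differences. The count of mitochondrial probe sets passing limma was 0 in each comparison under every alternative run except the replicate block, where it was 1 with ABA (nad1 257324_at); the block changed no other call. Leaving out each array in turn kept those counts at 0 and gave medians of 0.05 to 0.14 for ABA, -0.017 to 0.14 for ahg1-1 against wild type, -0.15 to -0.06 for ahg3-1 against wild type and 0.05 to 0.25 for ahg1-1 against ahg3-1. The ABA median was 0.05 without the first wild-type ABA array, and the ahg1-1 median was 0.14 without the first ahg1-1 array. With a single probe set for each gene (highest mean), the ABA median was 0.0033 over 16 probe sets, with nad1 and nad5 then counted once each. Leaving out dim probe sets kept 7 members and gave an ABA median of 0.02. The medians without matR and without probe sets of shared probes, both chosen after seeing the data, were 0.14 with ABA. Of 518 values of single members under an alternative, 16 changed sign, none of them past the threshold, 1 newly passed and none reversed or lost a call. These values covered the ABA differences of all members, but mutant differences only where the groups did not overlap. Leaving out an array cannot change the sign of a difference without overlap. The block, the trended robust variance, the fit of only the arrays compared and the fit without dim probe sets keep each point value. An array left out of a group not compared also keeps it, so many of the 518 could not change sign. The 16 arose without an untreated array (2 and 5 of 39 values), without a wild-type ABA array (3 and 5 of 39) and with cyclic loess (1 of 39). The 16 therefore do not show how stable the mutant differences with overlap were. Among those, nad2 in ahg1-1 against wild type changed sign in 2 of 8 fits with an array left out. The 8 include fits without an untreated or an ahg3-1 array, which could not move this difference.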
